A study of Mus musculus with 2 samples.

Results

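Clusters of UPF1-bound RNA that lie where annotated gene loci overlap were drawn from a deposited list of 123349 stranded clusters. A cluster was taken when it shared at least 1 base with 2 or more loci of the RefSeq annotation of the mouse build GRCm38, with a stretch of chromosome 18 in which many loci are stacked left out. This gave 8038 clusters, 6.52% of the list. Of these, 7888 lay in 2 loci and 150 in 3. A further 114242 clusters lay in 1 locus and 973 in none, and 96 fell in the left-out stretch.

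The assay was enhanced crosslinking and immunoprecipitation (eCLIP), in which RNA fragments that copurify with a protein are sequenced and set against an input library of the same kind of lysate. Neural progenitor cells from mouse cortex were used. Both libraries carry the genotype Upf2fl/fl, an allele of the decay factor Upf2 flanked by loxP sites, and the word MOCK, left unexplained there. With a single immunoprecipitate and a single input, the data hold no spread between cultures, and no test across clusters was made.

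UPF1 is an RNA helicase that binds mRNA and, with its partners UPF2 and SMG1, starts nonsense-mediated decay, the pathway that removes transcripts whose translation ends early or far from the usual end. Mammalian loci often share bases. In a convergent (tail-to-tail) pair both loci run toward each other and share their 3′ ends, in a divergent pair they share their 5′ ends, and in a nested pair one locus lies inside the other, as small nucleolar RNAs (snoRNAs) and many microRNAs (miRNAs) lie inside the introns of host genes. In a same-strand staggered pair one locus begins before the other has ended, the layout of readthrough. Because the clusters are stranded, a cluster between opposite loci can be read from 1 of them only, while a cluster in loci of the same strand cannot be given to either from its position.

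Members and lists were described by the authors' log2 fold of the immunoprecipitate over the input and the −log10 p of that fold. A cluster is called enriched below when the fold was at least 3 and the −log10 p at least 3. Read counts behind a fold were recovered from both deposited columns for 5921 of the 5964 members with a fold above 0, and the interval given beside a fold is the exact Clopper-Pearson 95% interval of those counts. Shares carry Wilson 95% intervals. Both kinds cover counting error only and take clusters of 1 gene as separate, although they are not independent.

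Markers were read over the whole list as a check of the labelled cell type. All 11 progenitor markers had a cluster and 7 of them an enriched one, as did all 6 astrocyte markers with 6, 6 of 7 oligodendrocyte-lineage markers with 6, and 6 of 8 neuronal markers with 3. Mbp, Tubb3 and Stmn2 had none. No cluster lay on any of 5 microglial or 3 blood markers, and 1 of 6 vessel and fibroblast markers had one. The immunoprecipitate library was 2.03 times the size of the input on the recovered scale, and the total reads of either are not given.

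The sequences that identify 2 kinds of overlap are shown first. Mature miRNAs touched by clusters that also lay in a host gene are from RefSeq (GRCm38.p6), 5′ to 3′, with the seed (bases 2 to 8) in capitals; they are the arms under both enriched clusters, the arm under the lowest one, and 5 further arms with most of their bases in a cluster, picked by hand from those covered.
mmu-miR-12188-3p: uGGACAGCaguaccccagccccucugc
mmu-miR-5114: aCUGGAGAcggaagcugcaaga
mmu-miR-3068-5p: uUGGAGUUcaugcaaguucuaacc
mmu-miR-705: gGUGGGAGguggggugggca
mmu-miR-546: aUGGUGGCacggaguc
mmu-miR-1902: aGAGGUGCaguaggcaugacuu
mmu-miR-3113-3p: uCCUGGCCcugguccugguc
mmu-miR-7673-5p: uUUGACUGagagguaaggaaug

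A second set holds the transcription start sites that lay under an enriched cluster. Each line gives 15 bases before the annotated start in lower case and the first 15 bases of the transcript in capitals, on the strand of the named locus, from the RefSeq promoter table (GRCm38.p6).
A730056A06Rik: tgaggtgggaggggcCCGGCTGGCGCTGGT
Gdf1: agattcaggatgctaCCCTTCTCCAGGGAC
LOC108167694: attcgcaggccgggcCCTACCCTGCTCGAG
The 3 windows lie at chr7:73375760-73375789 (minus strand), chr8:70329750-70329779 (plus strand) and chr9:124423386-124423415 (minus strand).

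The overlapping loci were mostly an mRNA gene with a long noncoding RNA (lncRNA) gene. The clusters touched 3671 loci, of which 2238 were protein-coding, 1156 lncRNA, 113 pseudogene, 99 snoRNA and 32 miRNA loci, in 1993 pairs. They lay on 20 chromosomes, 4022 of them on plus strands and 4016 on minus strands, and had a median width of 68 nt (quartiles 47 to 94). Of the 8038 clusters, 1027 were enriched (12.8%, interval 12.1 to 13.5), beside 11.6% of all clusters and 11.5% of those in 1 locus. Their median fold was 0.98, and that of clusters in 1 locus 0.65. Among enriched clusters alone the medians were 4.26 in overlapping loci and 4.30 in 1 locus.

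The enriched clusters were unevenly spread over the pairs. Of 1993 pairs, 275 held at least 1 enriched cluster and 93 held exactly 1, while the 20 richest pairs held 307 (29.9%). An enriched cluster had a median of 60 immunoprecipitate reads (quartiles 37 to 120.2) against 1 input read. An input of 1, which may also stand for no input read, lay behind 505 of the 988 enriched clusters with recovered counts (51.1%). Just outside the limits, 203 members reached the fold but not the p.

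The share of enriched clusters differed widely between arrangements of the loci. Convergent pairs stood highest, with 515 of 1938 clusters enriched (26.6%, interval 24.7 to 28.6) and a median fold of 2.15. Same-strand staggered pairs held 22 of 114 (19.3%, interval 13.1 to 27.5), with a median of 1.88. In same-strand nested pairs 100 of 1071 were enriched (9.34%, interval 7.74 to 11.2). Opposite-strand nested pairs had 116 of 2010 (5.77%, interval 4.83 to 6.88). Divergent pairs were lowest, at 7 of 380 (1.84%, interval 0.895 to 3.75), and the last 3 classes shared a median fold of 0.56. The strand of at least 1 locus was not known for the other 2525 clusters, of which 267 were enriched (10.6%). Leaving clusters with 1 input read uncalled, the convergent share was 12.95%, the staggered share 6.14% and that of clusters in 1 locus 5.75%.

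The share also differed by the types of the overlapping loci, which are not spread evenly over the arrangements. Where 2 protein-coding loci overlapped, 469 of 2431 clusters were enriched (19.3%, interval 17.8 to 20.9). Where an mRNA gene overlapped a lncRNA gene, 512 of 4918 were (10.4%, interval 9.59 to 11.3), and with a pseudogene 26 of 255 (10.2%, interval 7.05 to 14.5). The order of the first 2 types was not the same in every arrangement. In convergent pairs 273 of 1066 clusters of 2 mRNA genes were enriched (25.6%) and 242 of 862 of an mRNA and a lncRNA gene (28.1%). In opposite-strand nested pairs the counts were 66 of 357 (18.5%) and 50 of 1619 (3.09%). Pairs of lncRNA genes held 18 of 144 (12.5%, interval 8.06 to 18.9), and 17 of these 18 lay in 1 pair described below. None was enriched among 81 clusters of a protein-coding and a snoRNA locus, which allows a share of up to 3.70%, nor among 99 of a protein-coding locus with another small RNA or locus type, which allows up to 3.03%.

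**Figure D1:**
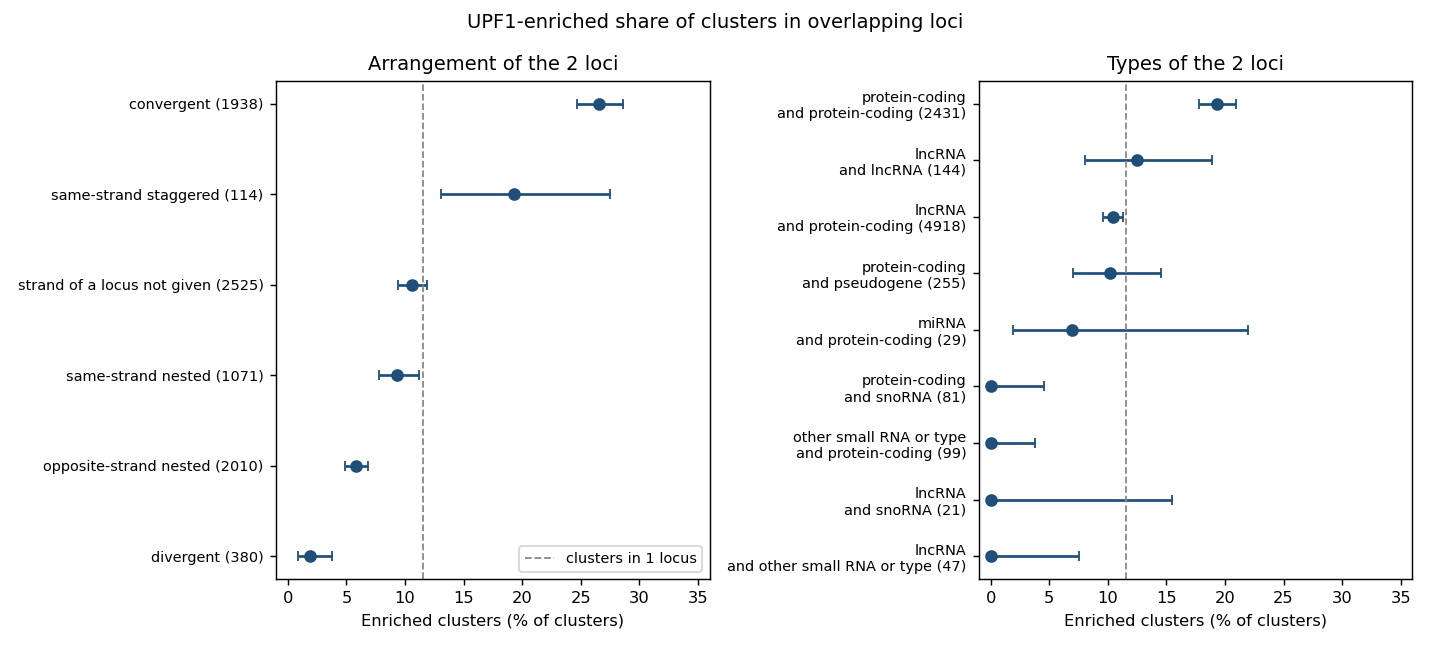
Share of enriched clusters (%, points) with Wilson 95% intervals (bars) by arrangement of the 2 loci (left) and by their types (right), with the number of clusters in brackets. The dashed line is the 11.5% of clusters in 1 locus; the convergent share of 26.6% stands to its right and the divergent share of 1.84% to its left.

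The arrangements also differ in where they put a cluster along a gene. Convergent loci overlap at their 3′ ends, and the clusters on the protein-coding strand of such pairs lay a median of 1368 nt of genome from the annotated 3′ end of their locus, 1071 nt for enriched clusters and 1601 nt for the others. In divergent pairs the median was 37294 nt, and in opposite-strand nested pairs 66681 nt. Distance was therefore matched by reading each set against clusters of 1 protein-coding locus in the same distance class, on clusters lying on the strand of exactly 1 protein-coding locus.

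Found and distance-matched shares lay within a few percentage points of each other in most classes. Applying the rates of single loci to the distances of the overlapping clusters gave 919.3 enriched clusters, 13.2% of 6965, and 866 were found (12.4%). For convergent pairs the rates gave 29.5% and 27.2% were found. For opposite-strand nested pairs the values were 6.38% and 5.97%, for divergent pairs 2.51% and 1.97%, and for same-strand nested pairs 6.66% and 7.77%. In the last, 15 of the 52 enriched clusters lay in 1 pair, Prdm16 with 5930403L14Rik. Of staggered pairs only 16 clusters could be placed in this way, none enriched, where the rates gave 12.9%. The 98 clusters of staggered pairs of 2 protein-coding loci, which hold all 22 enriched ones, could not be given to 1 locus and were left out. Within 5000 nt of the 3′ end, 806 of 2457 member clusters were enriched (32.8%), beside 34.6% of clusters in 1 protein-coding locus.

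Convergent clusters were also split by the type of the locus on the other strand. Opposite a lncRNA gene, 242 of 827 clusters on the mRNA strand were enriched (29.3%, interval 26.3 to 32.5), where the rates of single loci gave 27.7%. Opposite another mRNA gene, 273 of 1066 were (25.6%, interval 23.1 to 28.3), where those rates gave 31.0%. Within 1000 nt of the 3′ end the shares were 37.5% of 280 (interval 32.0 to 43.3) and 28.5% of 491 (interval 24.7 to 32.7), with 36.3% in single loci. The order was the other way from 5000 to 10000 nt, with 4 of 69 and 7 of 85 enriched, and at 20000 nt or more, with none of 68 and 5 of 25.

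**Figure D2:**
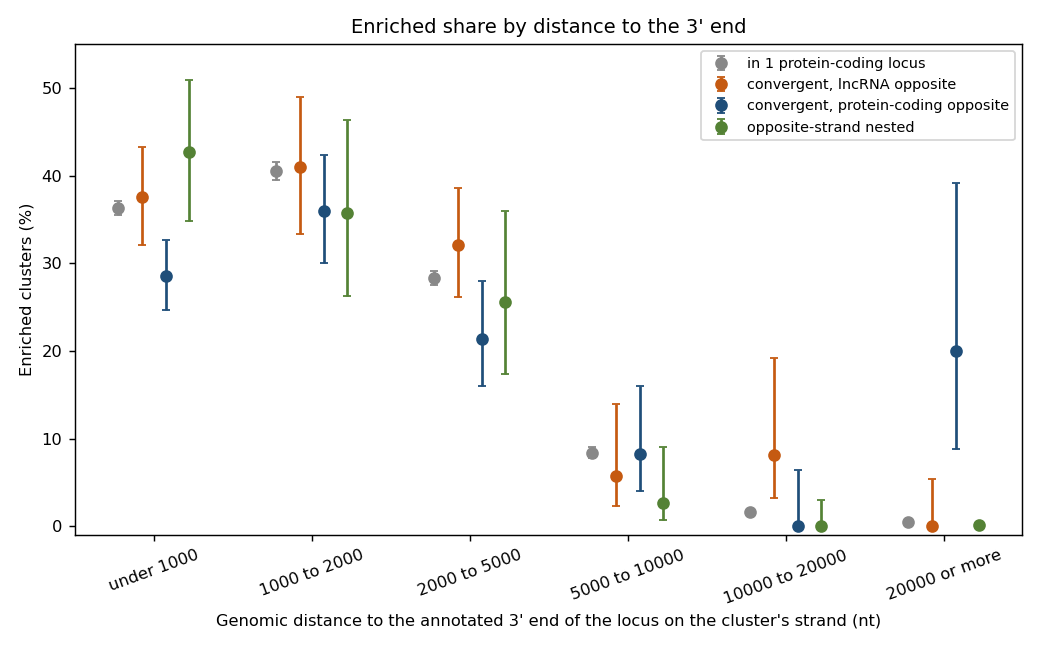
Share of enriched clusters (%, points) with Wilson 95% intervals (bars) by class of genomic distance from the cluster to the annotated 3′ end of the locus on its strand, in nt, for single protein-coding loci and 3 sets of overlapping clusters. All sets lie above 20% within 5000 nt, and the convergent set opposite an mRNA gene is at 28.5% in the nearest class, where single loci are at 36.3%.

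The same loci were also compared inside and outside their overlap. In 173 protein-coding loci with clusters of both kinds in the same distance class within 5000 nt, 97 of 301 clusters inside the overlap were enriched (32.2%, interval 27.2 to 37.7) and 186 of 446 outside it (41.7%, interval 37.2 to 46.3). The classes differed among themselves. Under 1000 nt the shares were 39.2% inside and 39.5% outside, and from 2000 to 5000 nt they were 25.9% and 44.9%. At 20000 nt or more, where few clusters were enriched anywhere, the order turned, with 27 of 3431 inside (0.787%, interval 0.541 to 1.14) and 83 of 24143 outside (0.344%, interval 0.277 to 0.426). Of those 27, however, 15 lay in 1 same-strand nested pair, Prdm16 with 5930403L14Rik, so the turn rests largely on that pair.

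Strand gave the plainest result for mRNA genes that face a lncRNA gene. Of 2731 clusters in such opposite-strand pairs, 2645 lay on the mRNA strand and 86 on the lncRNA strand (3.15%, interval 2.56 to 3.87). On the mRNA strand 298 were enriched (11.3%, interval 10.1 to 12.5). On the lncRNA strand none was, which allows a share of up to 3.49%, and with partners of any type none of 129 was, which allows up to 2.33%. The highest there were 2 clusters of 4933431E20Rik opposite Eps8l3, each at 3.15 from 18 reads against 1 (interval 0.48 to 8.53). Clusters lying only in a lncRNA locus on its strand were enriched in 22 of 1322 cases (1.66%, interval 1.10 to 2.51), a low share as well.

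Loci whose symbols mark them as opposite-strand, antisense or overlapping transcripts (endings os, as or ot, an ending that also takes in the snoRNA host Gas5) were read by strand as well. Some of them overlap a locus of their own strand, so the counts are not on the same footing as those above. Member clusters lay on 58 of them, 293 in all, with 34 enriched. Where strands were known, 56 of 260 clusters lay on the strand of the antisense locus itself, and 2 of those were enriched, both in the same-strand overlap of Sox2ot and Sox2. For Taco1os, an antisense lncRNA, all 17 clusters lay on the strand of Dcaf7.

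Some convergent pairs held long runs of enriched clusters. Ttyh1, a membrane protein of the tweety family, shares 9068 bp with the lncRNA gene D030047H15Rik on chromosome 7 (Ttyh1 at 4119530 to 4135407, plus strand). All 24 clusters there lay on the plus strand and all 24 were enriched, with folds from 4.27 to 7.28 and a median of 5.94. The highest rested on 946 reads against 3 (interval 5.72 to 9.56), 292.5 nt from the 3′ end of Ttyh1. A further 4 clusters lay past the annotated end of Ttyh1, in D030047H15Rik alone, and these too were enriched, up to 6.72, and on the plus strand, opposite to the lncRNA gene.

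Gpm6b, a proteolipid of neurons and glia, and Ofd1, a centriole protein, share 2461 bp on chromosome X (166386573 to 166389033). All 20 clusters were on the strand of Gpm6b, 18 of them enriched with a highest fold of 6.77 from 443 reads against 2 (interval 4.91 to 9.82). Outside the overlap, here and below meaning in no other locus, Gpm6b had 53 clusters, of which 7 were enriched, the highest at 3.90. The overlap, which is the 3′ end of the locus, thus held the top of the folds of Gpm6b. Inside and outside clusters were not matched for distance to the 3′ end in the comparisons of single pairs, here or below. For Mgrn1, a ubiquitin ligase, the top folds also lay in the overlap, here with Gm16861. All 8 clusters on the strand of Mgrn1 were enriched there, up to 6.64, and the 1 on that of Gm16861 stood at 1.56. None of 7 outside was enriched, where the highest was 2.15. Paqr8, a membrane progestin receptor, had 17 of 20 enriched up to 6.18 opposite Gm51618 and none of 6 outside, and Dcaf7, an adaptor of ubiquitin ligases and kinases, had 17 of 17 up to 5.96.

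Smg6, the endonuclease of nonsense-mediated decay, runs into Hic1, a transcriptional repressor gene on the other strand, over 3072 bp of chromosome 11 (75161377 to 75164448). Its 7 clusters in the overlap had folds of 3.26, 4.78, 4.62, 5.32, 3.88, 4.44 and 3.15 in order along the plus strand. All 7 lay on the strand of Smg6 and none on that of Hic1, and 6 were enriched, all but the last. The highest came from 81 reads against 1 (interval 2.80 to 10.64) at 922.5 nt from the 3′ end. Outside the overlap Smg6 had 24 clusters with none enriched and a highest fold of 2.30. Of the other decay factors in the list used, Smg1, Cnot1 and Xrn1 had member clusters without an enriched one, so 6 of the 13 member clusters on decay genes were enriched and all 6 were on Smg6.

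In other convergent pairs no cluster was enriched. Thra, a thyroid hormone receptor gene whose 3′ end overlaps Nr1d1, the circadian repressor REV-ERB alpha, had 3 clusters with folds of 1.30, 1.98 and 3.44, all on its own strand. Ube3a, the ubiquitin ligase gene lost in Angelman syndrome, had 14 clusters in its overlap with Snhg14, the long transcript that silences it on the paternal allele in neurons. All 14 lay on the strand of Ube3a, the highest at 2.98 (interval 1.01 to 6.08), and none on that of Snhg14. The progenitor gene Notch1 had 3 clusters up to 3.50 opposite 0610009E02Rik, and the overlap of Pax6 with Elp4 held 1, at 0.98 and on the strand of Elp4.

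Clusters on both strands of a pair were uncommon. Of 448 convergent pairs, 62 held clusters on both strands, against 5 of 201 divergent and 16 of 492 opposite-strand nested pairs. Enriched clusters on both strands occurred in 3 pairs, all convergent and all of 2 protein-coding loci, a type with 281 pairs of which 94 held any enriched cluster. These 3 were Fgd1 with Tsr2, Carm1 with Yipf2, and Homer3 with Ddx49.

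Carm1, an arginine methyltransferase, and Yipf2, a Golgi membrane protein, share 786 bp on chromosome 9 (21588682 to 21589467). The 3 clusters on the strand of Carm1 had folds of 4.83, 2.22 and 2.15, and the 4 on that of Yipf2 had 4.50, 2.88, 3.06 and 4.30. The first of each, at 21588709 to 21588851 and 21588727 to 21588863, shared 125 nt and were both enriched, from 116 reads against 2 (interval 2.95 to 7.90) and 46 against 1 (interval 1.95 to 9.83). The 2 folds differed by less than the width of either interval. In Fgd1, an exchange factor for Cdc42, and Tsr2, a ribosome maturation factor, 1 of 2 and 3 of 6 clusters were enriched. In Homer3, a postsynaptic scaffold, and Ddx49, an RNA helicase, 1 of 6 and 1 of 1 were.

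Over the whole list a plus and a minus cluster shared bases at 59 places, and 47 of these (79.7%) were between member clusters, covering 2195 nt in 34 pairs. The shared stretch had a median of 42 nt. Of the 47 places, 33 were in convergent pairs and 42 between protein-coding loci. Both clusters were enriched at 1 place, the one in Carm1 and Yipf2, 1 of them at 13 places and neither at 33.

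At the 13 places with 1 enriched cluster the other strand held few reads, and its wide interval covered the fold of the enriched strand at each of them. At the shared 41 nt of Bbof1, a ciliary gene, and Aldh6a1, a mitochondrial dehydrogenase, the plus strand of Bbof1 stood at 0.98 from 4 reads against 1 (interval -2.36 to 6.60) and the minus strand of Aldh6a1 at 6.15 from 144 against 1 (interval 3.64 to 11.46). For Mest, an imprinted hydrolase gene, and Copg2, a coatomer subunit, the folds were 4.56 from 96 reads against 2 on the strand of Mest and 0.56 from 3 against 1 on that of Copg2 (interval -3.08 to 6.27). In Cog5, a Golgi tethering subunit, and Hbp1, a transcription factor, both were high, at 3.06 from 17 reads against 1 and 5.26 from 78 against 1, and the first missed the p limit. The recovered reads of the lower strand were between 3 and 27 at these 13 places.

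**Figure D3:**
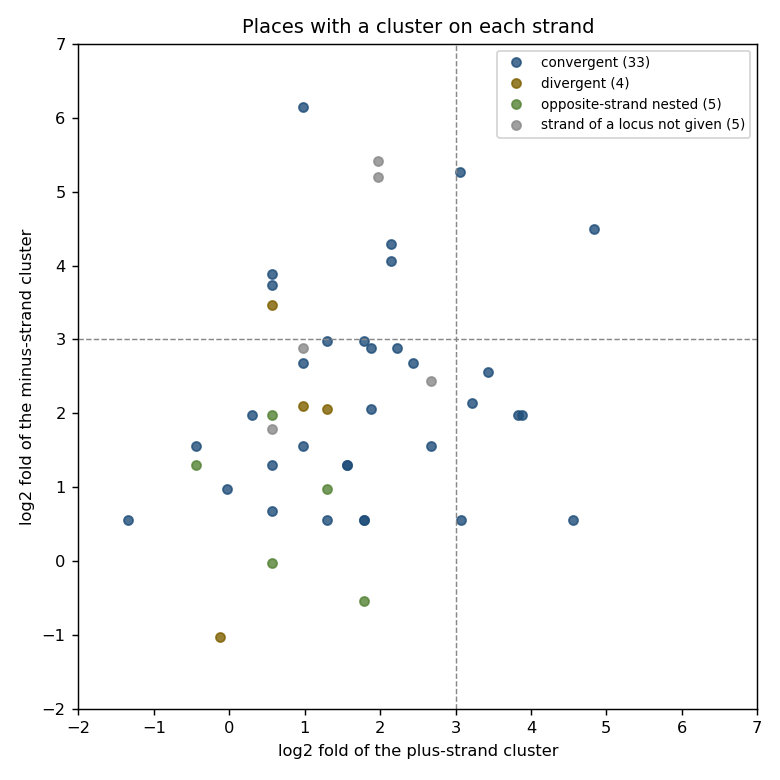
log2 fold of the plus-strand cluster (x axis) and of the minus-strand cluster (y axis) at the 47 places where they share bases, coloured by arrangement, with dashed lines at a fold of 3. The points past both lines are Carm1 with Yipf2 at 4.83 and 4.50, enriched on both strands, and Cog5 with Hbp1 at 3.06 and 5.26, where the first missed the p limit.

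The opposite-strand nested pair with the most enriched clusters was an mRNA gene inside a lncRNA gene. As a type, such pairs of an mRNA and a lncRNA gene were low, with 50 of 1619 clusters enriched (3.09%), 27 of them in this pair. Pairs of 2 mRNA genes held 66 of 357 (18.5%). All 27 clusters of Ednrb, the endothelin B receptor, lay inside Gm35197 on chromosome 14 (Ednrb at 103814615 to 103844508), and all 27 were on the minus strand, that of Ednrb, and enriched, with folds from 3.42 to 7.98 and a median of 5.77. The highest had 1030 reads against 2 (interval 6.13 to 11.03). Nnat, the imprinted neuronatin gene, lies in an intron of Blcap on the other strand, as is known of this pair, and all 9 clusters in it were on the strand of Nnat and enriched, from 3.51 to 5.15. Nucb1, a Golgi calcium-binding protein, had 7 of 10 clusters enriched up to 5.19 inside Tulp2, all on its own strand.

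Timp3, an inhibitor of metalloproteinases, lies inside Syn3, a synapsin gene of the other strand, over 49094 bp of chromosome 10 (86300412 to 86349505). Here both genes had clusters. On the strand of Timp3 11 of 25 clusters were enriched, with a highest fold of 4.98 from 64 reads against 1 (interval 2.45 to 10.30), and on that of Syn3 none of 7 was. Long pairs could also hold many clusters and no enriched one. Hdac8, a histone deacetylase, had 77 clusters where it overlaps Gm32262, from -1.44 to 1.78, and its 1 enriched cluster of 7 outside the overlap reached 4.53.

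Same-strand nested pairs cannot be split by strand, and their enriched clusters lay in few loci. Prdm16, a transcription factor of radial glia, holds the lncRNA gene 5930403L14Rik (chromosome 4, 154630691 to 154636367). Of the 17 clusters in both loci, 15 were enriched, up to 5.86 from 118 reads against 1 (interval 3.35 to 11.17). Which of these loci they come from was not tested. None of the 60 clusters of Prdm16 in no other locus was enriched, with a highest fold of 2.78. The highest cluster in both loci lay 316871 nt from the 3′ end of Prdm16. Of the 52 enriched same-strand nested clusters that could be given a distance, these 15 included, 36 lay within 5000 nt (69.2%). Where Sox4, a transcription factor of neuronal differentiation, lies inside Gm46405, 13 of 17 were enriched up to 5.77. Cers1, a ceramide synthase, and Gdf1, a growth factor, are known to share 1 bicistronic transcript, and 12 of their 13 clusters were enriched up to 6.17 (interval 3.66 to 11.48).

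Prn is annotated as the readthrough of the prion gene Prnp into its neighbour on chromosome 2. All 10 clusters in the 28509 bp that Prnp shares with it were enriched, from 4.40 to 7.62, with 399 reads against 1 at the top (interval 5.13 to 12.92), and no cluster lay in Prn alone. Sox2, the progenitor transcription factor, sits inside Sox2ot on the same strand. The 11 clusters in both loci ranged from -0.26 to 3.62, with 2 enriched. The 8 nearest the 3′ end of Sox2, from 816.5 nt to 155 nt away, include both and stood at 2.21 or above. The other 35 clusters of Sox2ot had none enriched and a highest fold of 2.78. The overlap of Npas3, a neuronal transcription factor gene, with Gm51419 held 80 clusters with none enriched and folds from -4.98 to 2.56.

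The same-strand nested class also took in 30 clusters on the strand opposite both loci of their pair. Of these, 23 lay in LOC117997403 and Gm26708, 2 lncRNA loci on the plus strand of chromosome 7, and 17 were enriched up to 5.87 (238 reads against 2). All 23 also lay in a further locus on the minus strand, Arnt2, which codes for a transcription factor of neural development. These 17 are the enriched clusters of the lncRNA pairs mentioned above, so on the strand of 2 overlapping lncRNA loci 1 enriched cluster was left. Without the 30, the loci of same-strand pairs, nested and staggered, had 105 of 1155 clusters enriched on their own strand (9.09%, interval 7.57 to 10.9).

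Readthrough-like staggered pairs were few, and 25 of the 33 joined 2 protein-coding loci. Arpc4, a subunit of the actin-nucleating ARP2/3 complex, runs 1188 bp into Ttll3, a tubulin glycylase, on chromosome 6 (113389260 to 113390447). The 4 clusters there stood at 6.20, 5.32, 6.34 and 6.49, all enriched, with 150 against 1, 162 against 2, 330 against 2 and 183 against 1 reads. Beyond the overlap both clusters of Arpc4 were enriched, and the single cluster of Ttll3 stood at 1.56. Cox7a2, a subunit of cytochrome oxidase, and Tmem30a, a flippase subunit, had 5 of 8 enriched up to 5.51.

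Slc5a3, the myo-inositol transporter, and Mrps6, a protein of the mitochondrial ribosome, begin almost together on chromosome 16 (92058322 and 92058336), and 8 of their 31 shared clusters were enriched up to 5.04. Ovca2, a hydrolase, and Dph1, a diphthamide synthesis enzyme, had 4 clusters at 3.15, 4.18, 4.83 and 3.44, with the middle 2 enriched. Ovca2 alone had 4 further clusters, all enriched up to 5.02, and Dph1 alone had 1 at 0.56. In 8 staggered pairs of an mRNA and a lncRNA gene none of 16 clusters passed, which leaves room for a share of up to 18.8%.

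Divergent pairs, which share 5′ ends, held 7 enriched clusters in all, 6 of them on the mRNA strand opposite a lncRNA gene. Rgma, a guidance molecule of the developing brain, had folds of 3.02, 2.56 and 3.09 in the 255 bp it shares with A730056A06Rik on chromosome 7 (73375520 to 73375774), all on its own strand, with the first and the last enriched. The last, from 52 reads against 3 (interval 1.46 to 5.42), covers the start site of A730056A06Rik shown above, on the other strand, and lay 44149 nt from the 3′ end of Rgma. Elsewhere Rgma had 18 of 26 clusters enriched up to 7.64. Kcna6, a potassium channel gene, had 2 of 16 enriched opposite Gm33581, up to 4.59 (interval 2.04 to 9.92).

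Sp3, a transcription factor gene, and Sp3os showed both strands. On the strand of Sp3 the 4 clusters stood at 1.78, 1.98, 2.98 and 3.47, the last enriched, and on that of Sp3os both clusters stood at 0.56, from 3 reads against 1 each. The imprinted pairs Igf2r with Airn and Gnas with Gnasas1 had 1 cluster at 0.56 and 4 from 0.56 to 1.39. The 4 lay on the strand of Gnasas1 and the 1 on that of Airn.

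Start sites were covered by few members. Of the members, 55 clusters covered 59 annotated start sites, 43 of which belonged to a locus on the other strand, and 3 of the 55 were enriched (5.45%, interval 1.87 to 14.9), an interval that takes in the 12.8% of all members. Besides the cluster in Rgma these were one over the inner start of Gdf1, at 5.45 from 89 reads against 1 (interval 2.94 to 10.77), and one over the start of LOC108167694 opposite 4930526I15Rik, at 3.73 from 54 against 2 (interval 1.81 to 6.81). The last 2 were on the strand of the start site they covered.

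In pairs for which a strand is not given, many enriched clusters lay in protein-coding genes beside lncRNA loci or, for Lrrc58, a pseudogene. Where Aqp4, the gene of the water channel of astrocytes, overlaps A830021F12Rik, 16 of 18 clusters were enriched, up to 5.32. All 18 lay on the minus strand, and neither locus has a strand here. Adgrg1, an adhesion receptor of cortical progenitors, had 15 of 15 clusters enriched up to 6.67 with Gm51544, at the 3′ end of its locus. Lrrc58 had 14 of 14 up to 6.14 with Gm15725, Txnip, an inhibitor of thioredoxin, 9 of 9 up to 6.62 with Gm15441, and Prex1, a Rac exchange factor, 7 of 7 up to 7.24 with Gm29679.

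Several long pairs of this kind had many clusters and none enriched. Csmd1, a large complement-related membrane protein gene, had 127 clusters with C030002A05Rik and a highest fold of 3.06, and Nfib, a transcription factor of gliogenesis, had 66 with 2310067E19Rik and a highest of 1.98. Nfib outside that overlap had 23 of 131 clusters enriched up to 5.61. Xist, the RNA of X inactivation, had 38 clusters within its overlap with Tsix, all on the strand of Xist, from -2.85 to 1.06 with a median of -0.28. Its highest cluster held 93 reads against 22 (interval 0.37 to 1.80).

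**Figure D4:**
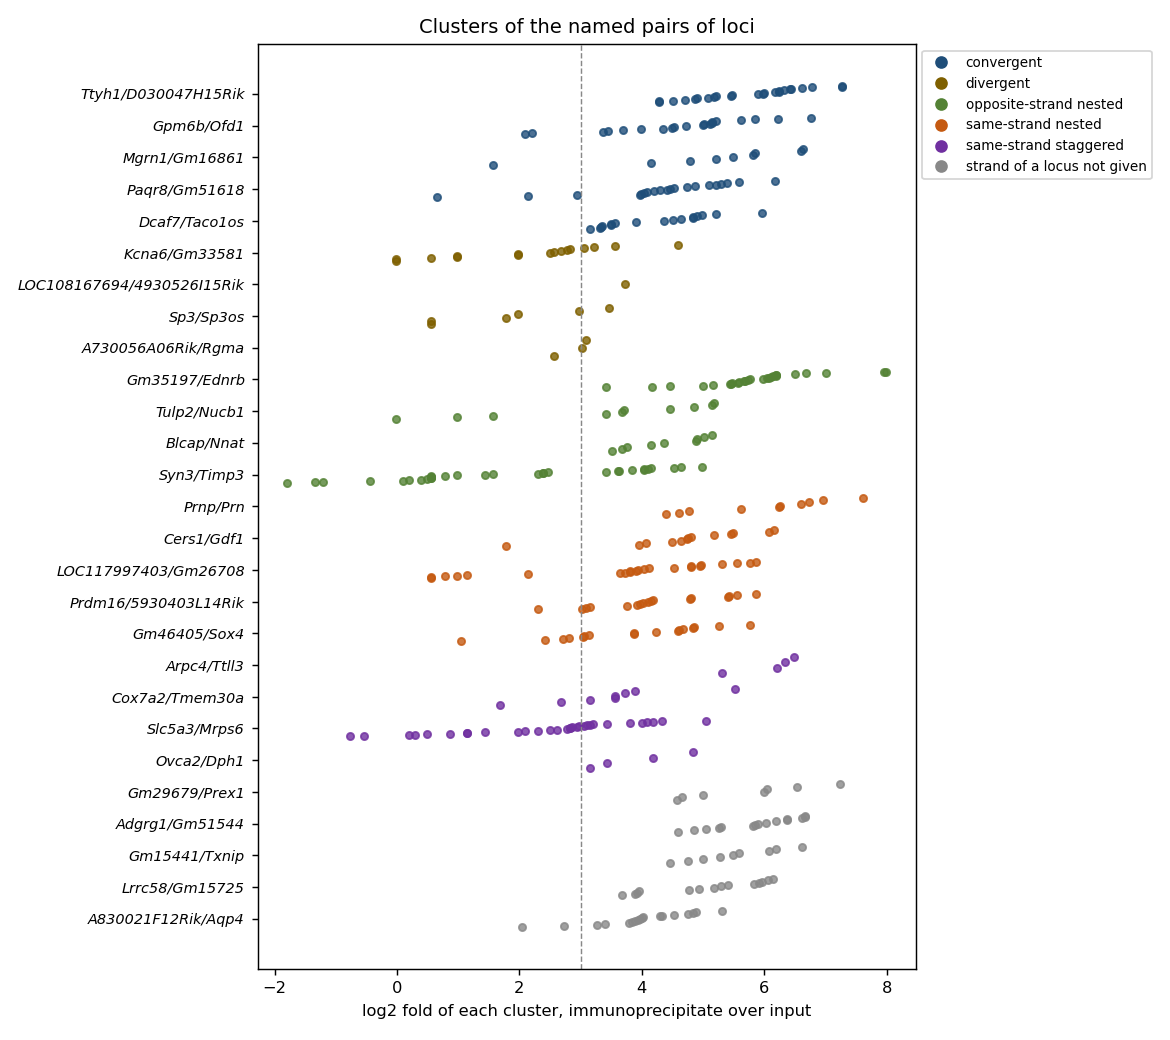
log2 fold of each cluster (points, x axis) of 27 named pairs with an enriched cluster (y axis), coloured by arrangement, with a dashed line at a fold of 3. Ttyh1 and Ednrb have every point to the right of the line, while Syn3 with Timp3 and Slc5a3 with Mrps6 spread across it.

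snoRNAs, which guide chemical modification of ribosomal RNA and are cut from the introns of their host transcripts, formed the other end of the scale. Clusters on 99 snoRNA loci numbered 108, with a median fold of -4.63. Of these, 107 were below 0, beside 26.8% of all clusters, and 85 were at -3 or lower, beside 0.468% of all clusters and 0.361% of those in 1 locus. Not 1 passed as enriched, where a count of 0 allows up to 2.78%. The authors' list gives no p for a fold below 0, so these values carry no test. All members together held 131 clusters at -3 or lower (1.63%), so snoRNA loci held most of them.

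The lowest fold was -8.28, on LOC115488553 inside Rpl30, a ribosomal protein gene. Other low folds in ribosomal protein genes were -7.51 on Snora65 in Rpl12, -7.38 on LOC115490270 in Rpl6 and -7.29 on Snora7a in Rpl32. Loci named as H/ACA box RNAs (symbols starting with Snora) had 26 clusters from -7.52 to -4.06 with a median of -6.19, all at -3 or lower. Those named as C/D box RNAs (Snord) had 28 from -5.70 to 2.30 with a median of -3.72, 17 of them at -3 or lower. The lower quartile of the Snord clusters, -4.29, lay near the upper end of the Snora clusters.

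The other clusters of the host genes did not share these values. Of 69 hosts, 60 had other clusters, and 96 of the 97 snoRNA clusters in them were lower than the median of their host, which had a median of 0.75. In 8 hosts another cluster was enriched. Ncl, the nucleolar protein nucleolin, had 11 of 22 other clusters enriched up to 5.37 while Snora75 in it stood at -5.55. Eif5, a translation initiation factor, had 8 of 17 enriched up to 4.22 with Snora28 at -5.17. In Eif4g2, another initiation factor gene, 8 of 32 were enriched up to 5.70 while the clusters on LOC115486847 stood at -1.37 and -1.28.

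The 1 cluster above 0 was that on Snord42a in Rpl23a, at 2.30 from 10 reads against 1 (interval -0.52 to 7.74). Only 20.5% of its bases lay in the snoRNA, and it was on the plus strand, whereas the cluster on Snord42b in the same host was on the minus strand at -1.02. Of the 106 clusters with 50% or more of their bases in the snoRNA, 106 were below 0. Where the host has a strand, 101 of 102 snoRNA clusters lay on it. Guide RNAs of Cajal bodies also lay low, with 12 clusters at a median of -3.23, and 5 clusters on tRNA loci had a median of -2.16.

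**Figure D5:**
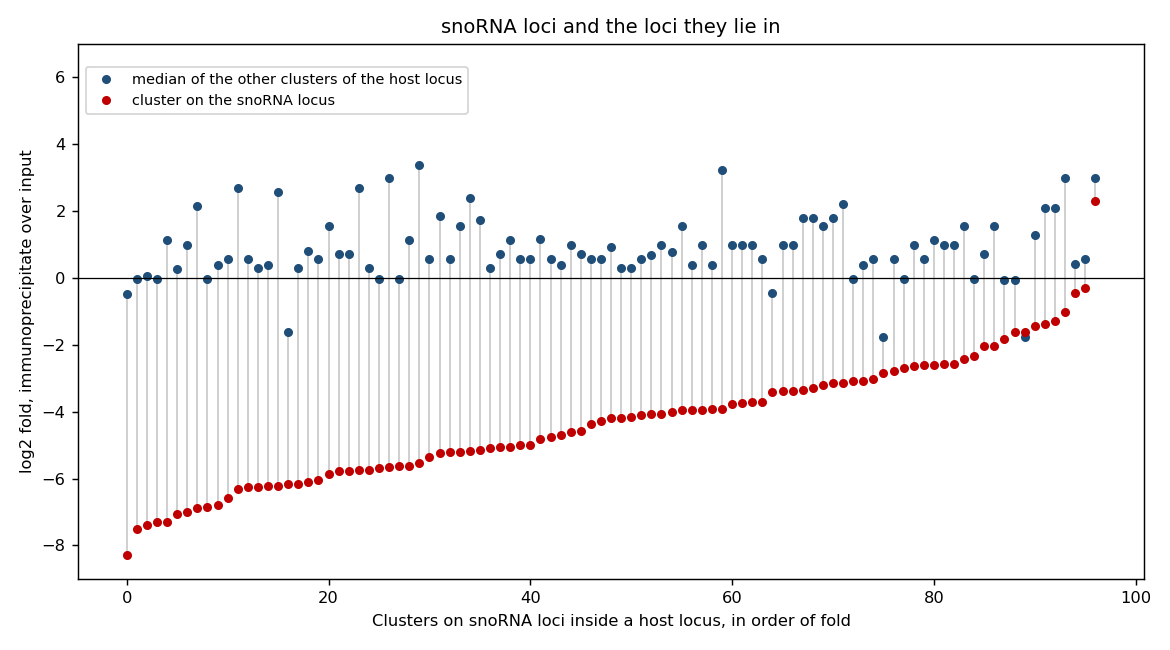
log2 fold of the 97 clusters on snoRNA loci (red) and the median of the other clusters of the same host (blue), joined by a line and ordered by the fold of the snoRNA cluster. The 2 lie on opposite sides of 0 in most hosts, and the highest snoRNA cluster, at 2.30, is that on Snord42a.

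miRNA loci inside host genes were mostly not low. On 32 miRNA loci lay 34 clusters, with a median fold of 0.78. Of these, 2 were enriched (5.88%, interval 1.63 to 19.1), an interval that takes in the 11.6% of all clusters. Those 2 were on Mir12188 in Clcn7, a lysosomal chloride transporter, at 3.33 from 41 reads against 2 (interval 1.39 to 6.43), and on Mir5114 in Scd2, a fatty acid desaturase, at 3.49 from 137 against 6 (interval 2.33 to 4.96). Both hosts were enriched elsewhere, with 3 of 14 other clusters for Clcn7 (median 2.72) and 58 of 58 for Scd2 (median 6.30). The cluster on Mir5114 covers 1 of the 22 bases of the mature miR-5114, and that on Mir12188 covers 12 of the 27 of miR-12188-3p (chr17:25160550-25160576).

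Altogether 23 mature arms were touched, each with a seed of its own, and 10 were covered for 50% or more. Among the clusters over these arms, that on miR-3068-5p (chr12:87437724-87437747) in Alkbh1, a demethylase of nucleic acids, stood apart at -6.77. It held 23 of the 24 bases of the arm, but only 32.4% of the cluster lay in the miRNA locus. The other 5 clusters of Alkbh1 had a median of 0.98. In all, 4 of the 34 miRNA clusters were at -3 or lower, beside 0.468% of all clusters. The other 3 were on Mir6516 in Snhg20 (-6.25), on Mir3069 in Snhg10 (-5.45) and on Mir1291 in Kansl2 (-4.07). Of the cluster on Mir6516 18.1% lay in the miRNA locus, and of that on Mir3069, which shares bases with Scarna13, 16.9%. The cluster on Mir1291 lies wholly in the snoRNA Snora34 and is counted there too.

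The other arms shown stood somewhat above the median of their hosts. miR-705 in Rab11fip5 stood at 2.50 from 23 reads against 2, with a host median of 1.27, and miR-546 in Ctdsp2 at 3.30 from 20 against 1, which missed the p limit, with a host median of 2.35. miR-1902 in Hipk3 stood at 0.98 with a host median of 0.27, miR-3113-3p in Huwe1 at 1.18 with 0.30, and miR-7673-5p in Klhl15 at 1.78 with 0.56. The lower bounds of the intervals of these 3 lay below 0. The cluster over the 5p arm of miR-125b in Mir100hg, at 0.20 from 28 reads against 12, covers 1 of its bases.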

How the data were processed

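UPF1 eCLIP was measured in 1 immunoprecipitate and 1 input of mouse cortical neural progenitor cells. The authors deposited 1 list of stranded clusters without a header, giving per cluster a log2 fold (immunoprecipitate against input) and a −log10 p, both units read from the values. Clusters were deposited with p up to a cap of 400 and with 0 for folds below 0. UMI-tools, cutadapt, STAR and mm10 are named per the submitters' processing notes; how clusters were called, folds computed and clusters filtered is not given in the sources used here. RNA without a cluster is not in the list.

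Clusters were joined with RefSeq loci (GRCm38.p6 tables; outer coordinates only, so exons, introns and UTRs are not told apart) by at least 1 shared base. A locus's strand came from the RefSeq sequence tables (2696 loci) or from at least 80% of 2 or more clusters lying in it alone (290), and 685 loci had none. Where both were known, 6666 of 6689 agreed in sign. The 2 loci covering most of a cluster form its pair. Read counts were whole numbers whose log2 ratio, shifted by -1.02, and whose binomial or chi-square p matched the deposited values within 0.05 or 1% of the −log10 p. On simulated clusters 295 of 303 count pairs came back (97.4%). Distance is genomic, from a cluster's midpoint to the annotated 3′ end of its locus.

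Pairs were named by a rule: in each arrangement the 4 with the most enriched clusters, the 8 with the highest folds, the richest of each type pair with 5 or more enriched clusters, the 4 with the most clusters and none enriched, the 5 with the most enriched clusters on the lesser strand, and members of lists of decay, imprinted or antisense, and marker genes; some results are not reported here. The miRNAs, snoRNAs, host genes and places shared by both strands were picked after their values were seen. Members and lists were chosen with earlier results of these data known. Python 3.11.15, pandas 2.3.3, scipy 1.17.1 and matplotlib 3.10.9 were used. No cluster sequence was read, since no genome was used here.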

Additional observations from a re-analysis of the deposited data

How the results depend on the processing

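No paired analysis was possible because there was 1 immunoprecipitate and 1 input. Of 96 alternatives 60 left a share within the interval of its main value and 36 did not; the cause was not tested beyond what each limit itself removes. Not calling clusters with an input count of 1, keeping only clusters of at least 20 nt and taking strands from tables alone were chosen after seeing the data. The share of all members was 14.3% with a log2 fold of at least 2, 7.64% with 4, 9.48% with a −log10 p of at least 5, 6.49% with an input count of 1 not called, 9.84% with touching clusters joined and 15.8% by width, beside 12.8%, 7.18%, 8.73%, 5.75%, 8.85% and 14.6% in 1 locus, so members stayed higher in these 6. Convergent pairs gave 29.1% (fold of 2), 15.6% (fold of 4), 19.4% (p), 12.95% (input of 1) and 22.6% of 452 clusters with strands only from clusters in no other locus, which left 12.2% of 7470 without a strand and put divergent pairs at 4%. Same-strand nested pairs gave 11.5% (fold of 2), 5.60% (fold of 4) and 5.70% (input of 1), staggered pairs 6.14% (input of 1), opposite-strand nested pairs 3.33% (fold of 4), 4.03% (p) and 3.28% (input of 1), divergent pairs 0.263% (fold of 4), and pairs without a strand 6.69% (fold of 4), 8% (p) and 5.23% (input of 1). By type, mRNA pairs gave 21.3% (fold of 2), 11.02% (fold of 4) and 13.3% (p), lncRNA with mRNA 11.8%, 6.49% and 8.09% for the same, lncRNA pairs 7.64%, mRNA with pseudogene 6.27% and miRNA with mRNA 0% (fold of 4), the last 25% of 4 where whole clusters were required. Within 5000 nt of the 3′ end members gave 36.2% with a fold of 2, beside 37.7% in 1 locus. Bases under clusters of both strands fell from 2195 to 125 when both had to be enriched. Depth limits the low end: an input of 1 lay behind 51.1% of enriched members with counts, and staggered pairs fell to near the 5.75% of clusters in 1 locus once those were not called.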
